A study of Mus musculus with 10 samples.

Results

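DNA methylation was examined at 10 mouse genes of the antioxidant and metal response, namely Keap1, Nfe2l2, Gclc, Gclm, Nqo1, Hmox1, Txnrd1, Srxn1, Mt1 and Mt2. They were taken by name, out of 21883 protein-coding genes of the RefSeq annotation, of which 18223 had a measured position. A position was counted to a gene if it lay inside it or within 2000 bp of either end, which gave 824 of the 2137822 measured cytosine positions. The level of a set of positions is the share of methylated calls among all calls, in percent. The study compared embryos of an arsenic group (5 samples) with embryos of a control group (5 samples), all at embryonic day 7.5 (E7.5). The labels give no strain, dose, route or time of exposure. The tissue label reads embryos, whereas the protocol text also speaks of sperm DNA as library input, and the labelled tissue could not be checked against expressed markers in methylation data. Reduced representation bisulfite sequencing, the assay used, reads cytosine methylation in short CpG-rich restriction fragments.

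The 10 sets of read counts in the deposited table carry only the numbers 1 to 10, which name neither arsenic nor control. No set was tied to a group, so no difference between arsenic and control could be computed, and each set is called a library column. Values are given as the level over all reads and as the lowest, median and highest column. Summed over all positions, column 3 had the least coverage (73509810) and column 1 the most (127743823), and every position had at least 10 reads in every column. The mean autosomal level was 40.1 to 42.7% across the columns. A member position was covered by 154 to 1814 reads summed over the columns, with a median of 435. In DNA from whole embryos, a level between 0% and 100% cannot tell a mixture of methylated and unmethylated cells from partial methylation in each cell.

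Nfe2l2 encodes Nrf2, a transcription factor that binds antioxidant response elements in gene promoters. Keap1 is an adaptor of a ubiquitin ligase that marks Nrf2 for degradation, and electrophiles and arsenite are known to modify its cysteines and release Nrf2. Known targets of Nrf2 make glutathione, reduce thioredoxin and peroxiredoxin and break down quinones and haem. Mt1 and Mt2 encode metallothioneins, small cysteine-rich proteins that bind zinc, copper and cadmium, and are switched on through metal response elements by the zinc-sensing factor MTF1. Methylation of cytosines at a gene start commonly goes with a silent promoter, but no expression was measured here.

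The promoters with the most measured CpGs were those of Mt2, Mt1 and the pair of internal starts of Txnrd1, and their sequences show which CpGs the values below come from. Each is the run of 250 bases before an annotated start, read in the direction of transcription from RefSeq GRCm38.p6, which is the assembly of mm10. Capitals mark the CpGs measured on at least one strand. Mt2 lies at chr8:94172368-94172617, Mt1 at chr8:94178839-94179088, and the Txnrd1 runs at chr10:82858956-82859205 and chr10:82860091-82860340, all on the plus strand.
Mt2: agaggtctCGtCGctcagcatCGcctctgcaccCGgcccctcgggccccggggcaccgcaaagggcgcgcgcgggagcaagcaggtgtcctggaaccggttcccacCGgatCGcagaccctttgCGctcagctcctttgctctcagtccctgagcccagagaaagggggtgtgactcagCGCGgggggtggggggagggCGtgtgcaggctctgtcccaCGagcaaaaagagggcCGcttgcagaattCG
Mt1: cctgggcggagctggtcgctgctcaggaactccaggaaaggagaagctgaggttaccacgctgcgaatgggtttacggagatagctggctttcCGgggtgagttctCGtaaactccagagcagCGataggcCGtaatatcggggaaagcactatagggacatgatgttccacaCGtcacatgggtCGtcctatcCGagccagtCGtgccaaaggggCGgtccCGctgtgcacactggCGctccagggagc
Txnrd1, the second start: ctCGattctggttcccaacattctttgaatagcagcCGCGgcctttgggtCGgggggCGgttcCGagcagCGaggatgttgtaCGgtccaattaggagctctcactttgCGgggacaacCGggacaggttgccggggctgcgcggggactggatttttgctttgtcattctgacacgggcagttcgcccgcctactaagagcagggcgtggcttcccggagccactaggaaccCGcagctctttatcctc
Txnrd1, the third start: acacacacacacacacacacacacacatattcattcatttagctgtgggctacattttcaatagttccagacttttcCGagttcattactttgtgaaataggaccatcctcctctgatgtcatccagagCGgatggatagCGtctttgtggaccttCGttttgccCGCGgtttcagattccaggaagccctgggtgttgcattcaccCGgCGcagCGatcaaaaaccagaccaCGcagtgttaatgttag
In Mt2, 13 of the 21 CpGs were measured, with a level of 1.28% and a range over the columns of 0.163 to 3.46% (median 0.824%). In Mt1, 11 of 17 CpGs were measured, at 1.72% (0 to 6.50%, median 0.577%). The second start of Txnrd1 had 11 of 19 CpGs measured, at 0.776% (0.278 to 1.13%, median 0.674%), and the third start had 10 of 10, at 1.72% (0.741 to 4.65%, median 1.37%). These 4 stretches of CpGs were therefore nearly free of methylation, with the widest range over the columns in Mt1. The same stretch of Nfe2l2 had only 2 of 18 CpGs measured, at 3.75%. None of the CpGs in this stretch was measured in Gclm (41 CpGs), Srxn1 (21), Keap1 (10) and Nqo1 (5), nor at the first start of Txnrd1 (2), and Gclc and Hmox1 had no entry in the promoter table.

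Around their starts, all 9 genes with measured positions there were nearly unmethylated, at 0.715 to 4.66%. A start window holds the positions within 1000 bp on either side of an annotated start. For Gclc and Hmox1, which have no strand here, the lower coordinate end of the gene stands in for the start. Nqo1, a quinone reductase, had no measured position in its window. All 9 windows lay under 20%, as did 83.2% of the 10961 autosomal protein-coding genes with at least 3 positions and an annotated start. The median was 1.26% over the 9 members and 2.32% over all of those genes, and 8 of the 9 members lay under 2%, against 46.5% of all genes. Without the pair of stand-ins, the count was 7 of 7 and the median 1.06%.

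Both regulators had windows under 1%. Keap1 (chr9:21229730-21239332, minus strand) had a level of 0.715% over 78 positions, with columns at 0.364 to 1.35% and a median of 0.700%. Nfe2l2 (chr2:75675513-75704663, minus strand) had 0.743% over 30 positions, with columns at 0.282 to 1.25% and a median of 0.818%. Their column ranges overlapped. The highest column of Keap1 was column 7, and the other 9 columns reached at most 0.840%.

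The genes of glutathione synthesis also had low windows. Gclc and Gclm encode the catalytic and the modifier subunit of glutamate-cysteine ligase, the rate-limiting enzyme of that pathway. Gclm (chr3:122245487-122267215, plus strand) had 1.06% over 86 positions in its window, with columns at 0.590 to 1.49% and a median of 1.10%. These are all positions measured in Gclm, 38 of them with no methylated call in any column. Gclc (chr9:77754535-77794489) had 1.36% over 45 positions, with columns at 0.773 to 2.18% and a median of 1.04%.

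Among the enzymes of the thioredoxin system and of haem breakdown, Hmox1 stood highest. Txnrd1 (chr10:82833951-82897724, plus strand), the cytosolic thioredoxin reductase, had 1.00% over 96 positions around its internal starts, with columns at 0.671 to 2.15% and a median of 0.946%. Srxn1 (chr2:152105524-152111376, plus strand), which reduces overoxidised peroxiredoxins, had 1.35% over 10 positions, with columns at 0 to 5.00% and a median of 1.07%. Its 95% Wilson interval, from 1.04 to 1.75%, rests on 4148 calls, and such intervals are too narrow because calls of a read at neighbouring positions are not independent. Hmox1 (chr8:75093618-75100593), the inducible haem oxygenase, had 4.66% over 34 positions, with columns at 2.38 to 7.78% and a median of 4.62%. Hmox1 was above Mt1, the next gene below it, in 10 of 10 columns, although the ranges of both genes overlapped. The window of Hmox1 was 2.34% with each position weighted equally and 12.9% with at least 30 reads in each column. The value of Hmox1 came from its outer edge. A pair of positions more than 250 bp before the lower coordinate end had 25.1% (columns at 19.7 to 29.3%, median 25.3%), whereas the 32 positions within 250 bp of that end had 0.949% (0.450 to 2.12%, median 0.705%).

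The metallothionein windows lay within the range of the antioxidant genes. Mt2 (chr8:94172618-94173567, plus strand) had 1.26% over 100 positions, with columns at 0.759 to 2.02% and a median of 1.16%. Mt1 (chr8:94178883-94180327, plus strand) had 1.86% over 77 positions, with columns at 1.29 to 2.93% and a median of 1.78%. Ordered by level, the windows ran Keap1, Nfe2l2, Txnrd1, Gclm, Mt2, Srxn1, Gclc, Mt1 and Hmox1. No neighbours in this order had separate column ranges. The order depended on the settings: with start windows of 500 bp, Gclm (0.830%) and Gclc (0.860%) lay below Nfe2l2 (0.870%).

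**Figure D1:**
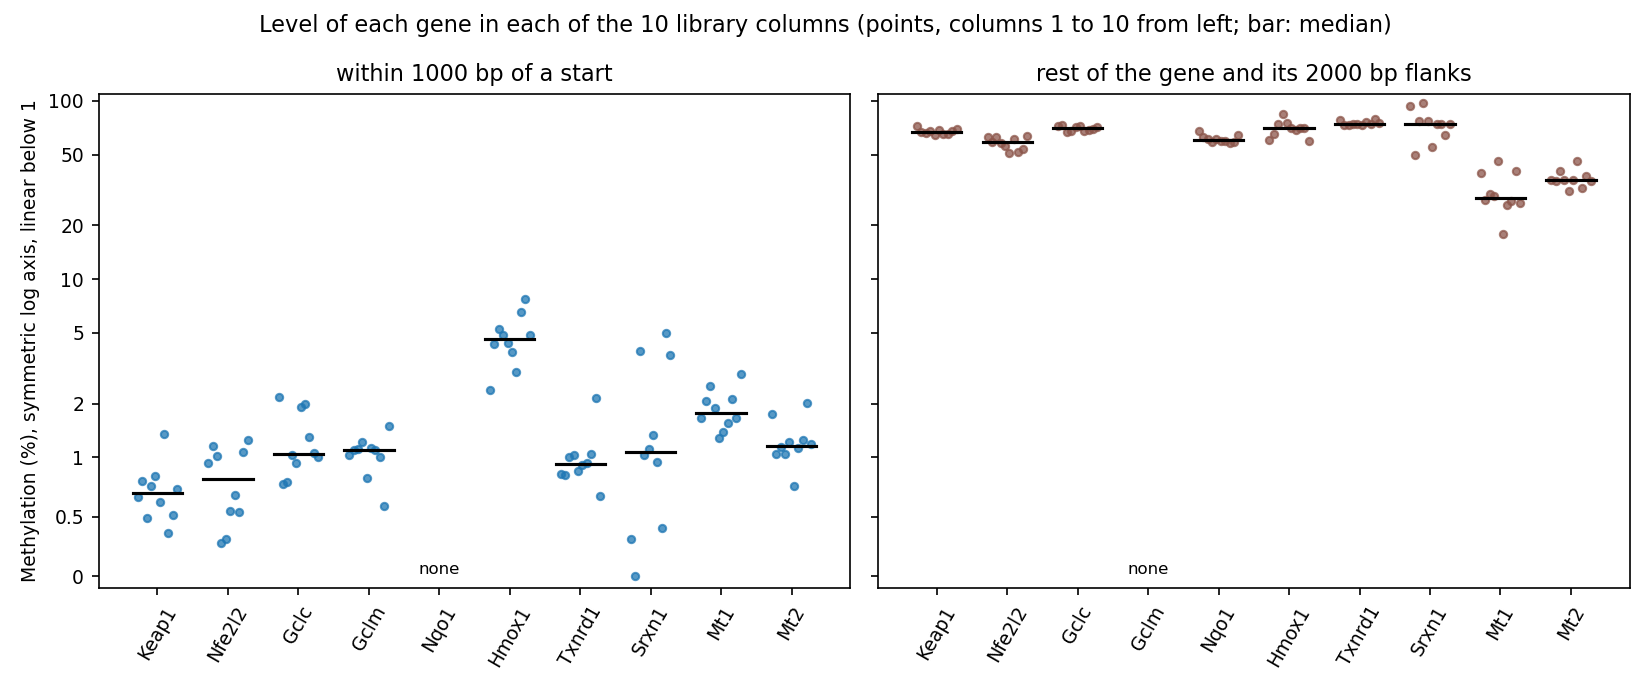
Methylation level in percent (symmetric log axis, linear below 1) of each gene in library columns 1 to 10, as points, with the median as a bar, for positions within 1000 bp of a start (left) and for the rest of the gene and its 2000 bp flanks (right). The start windows lie at 0 to 7.78%, and the rest lies at 17.9 to 96.9%, with Mt1 and Mt2 lowest.

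Away from the starts the same genes were methylated. The rest of a gene and its flanks had 67.6% in Keap1, 57.8% in Nfe2l2, 70.0% in Gclc, 75.3% in Txnrd1, 61.3% in Nqo1 and 36.5% in Mt2. In 3 genes this rest was thinly covered, with 69.3% at 4 positions of Hmox1, 73.6% at 2 positions of Srxn1 and 31.6% at 2 positions of Mt1. The start window lay below the rest in 10 of 10 columns in all 8 genes that had both. The difference, start window minus rest, was -66.8 points in Keap1 (columns at -71.6 to -63.3), -74.3 points in Txnrd1 (-77.4 to -72.4) and -29.7 points in Mt1 (-44.7 to -16.5). Of the 7 members with at least 3 positions in the rest, 0 lay under 20%, against 8.44% of 12286 genes. The median was 67.6% over these 7 and 59.2% over all of those genes. With start windows of 500 bp, 3 members were under 20% in the rest and the median was 34.6%. The window of 1000 bp was itself chosen after seeing the data.

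**Figure D2:**
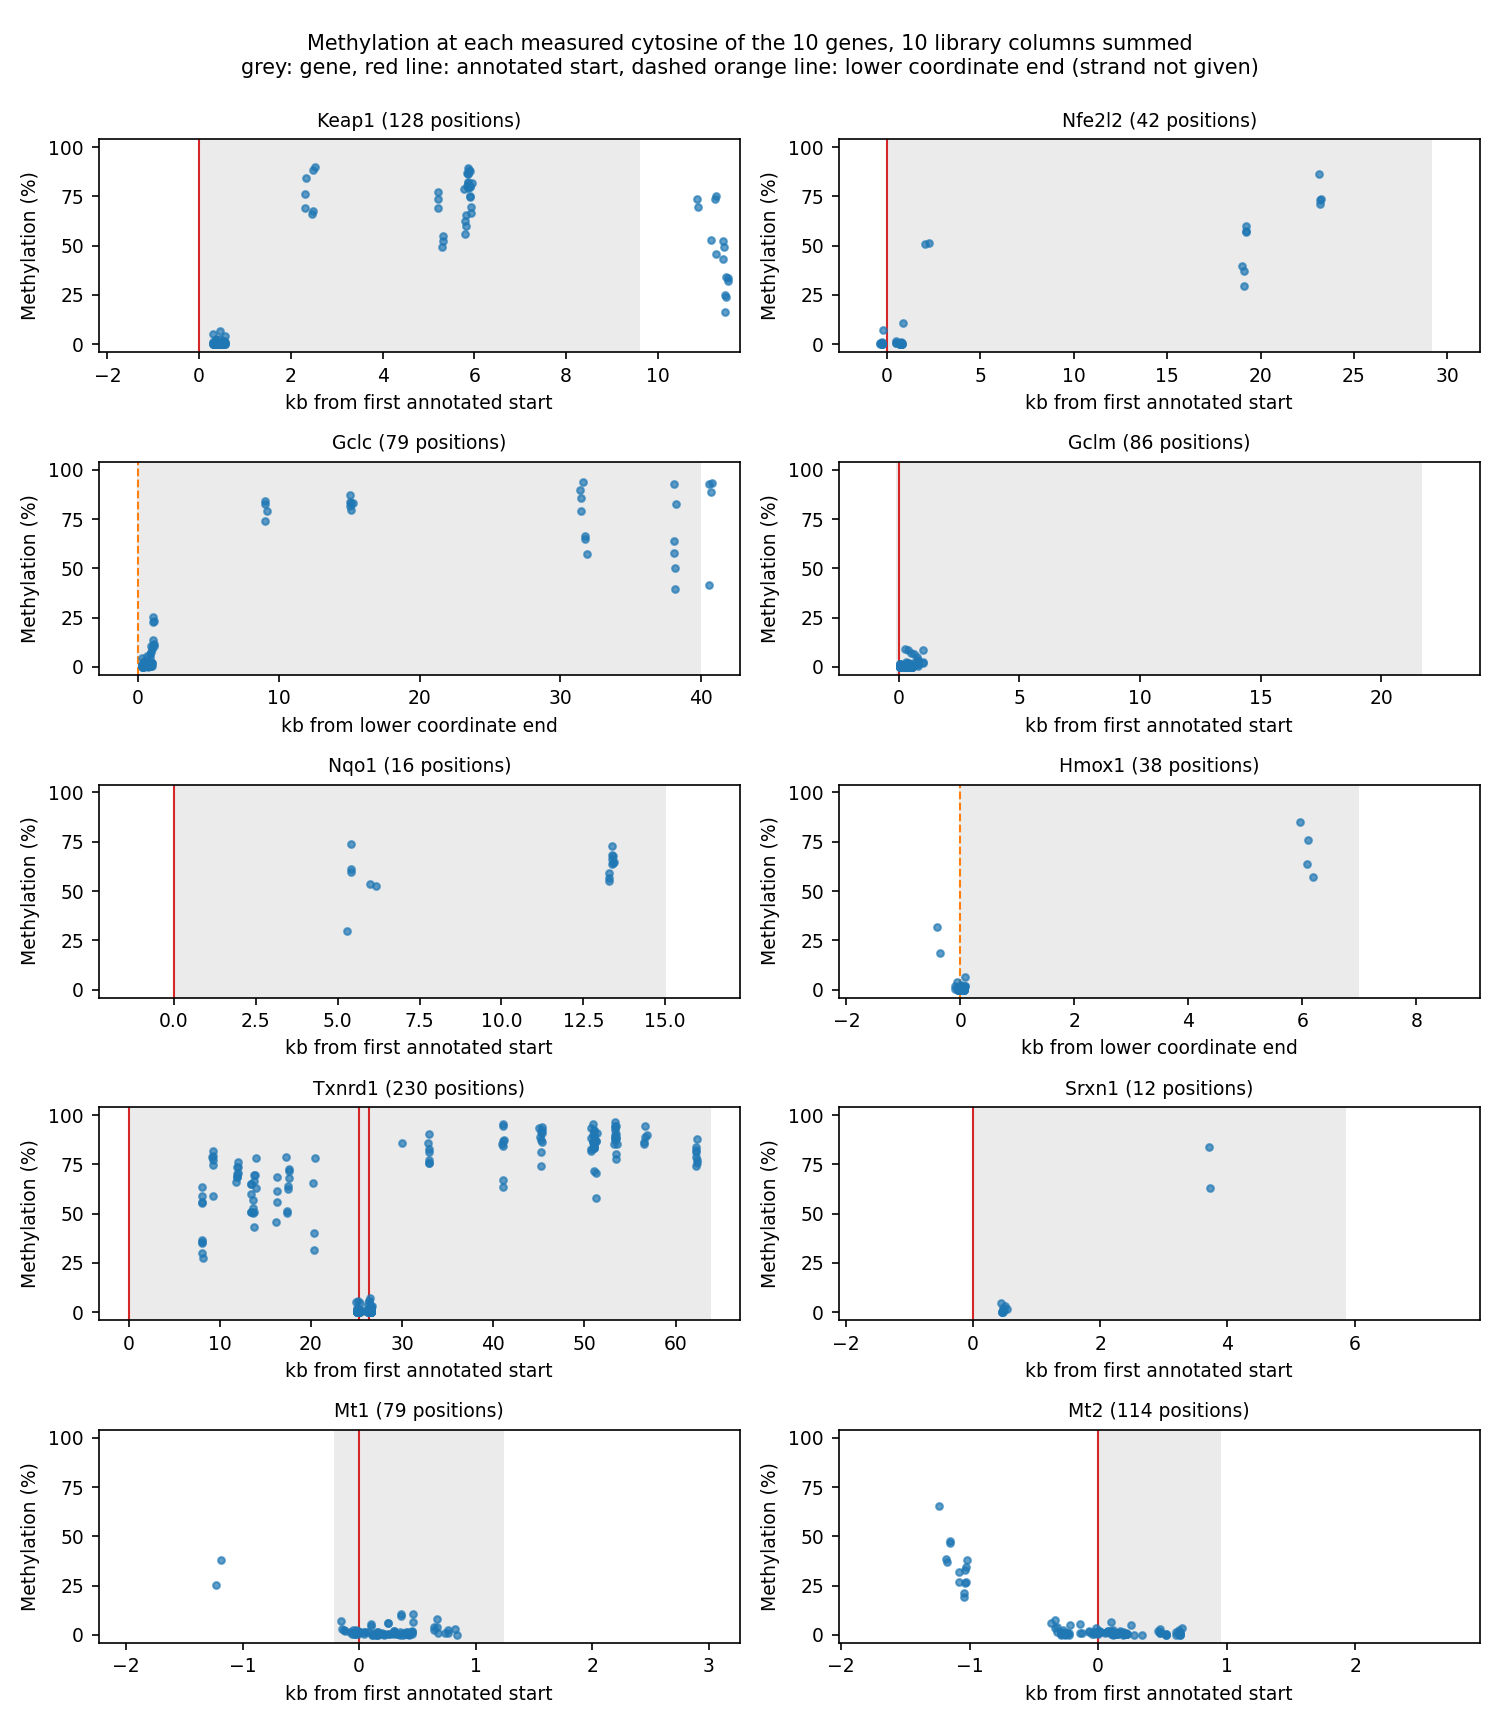
Methylation in percent at each measured cytosine, with the reads of all library columns summed, against the distance in kb from the first annotated start, or from the lower coordinate end where the strand is not given (dashed line). Grey marks the gene and red lines the annotated starts. Positions near 0% gather at the starts of 9 genes, and Nqo1 has positions only inside the gene.

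By the fixed zones, the gene body and the 2000 bp outside each end, the members differed widely. Gene bodies, which include the part of the start window inside the gene, ranged from 1.06% in Gclm to 61.3% in Nqo1. Mt2 had 1.07%, Mt1 1.86%, Srxn1 7.28%, Hmox1 10.04%, Keap1 24.5%, Nfe2l2 26.1%, Gclc 28.5% and Txnrd1 42.2%. All 86 positions of Gclm were in its start window, whereas all 16 of Nqo1 were outside such a window. Nqo1 had 58.3 to 68.2% in its columns, with a median of 60.2%. Of the 10 bodies, 5 lay under 20%, against 27% of 13120 genes, and the median was 17.3% over the members and 39.6% over all of those genes. The count and the median of the members depended on the settings. With at least 30 reads in each column, 2 bodies were under 20% and the median was 35.8%. Gclm, Hmox1 and Srxn1, which lay under 20% above, had no body position left at that setting. With the 1000 bp inside each end left out of the body, 1 was under 20% and the median was 59.6%. Mt1, Mt2, Hmox1 and Srxn1 then had too few body positions left to be counted. The 39.6% over all genes is for whole bodies, so this median cannot be set against it.

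The flank before the start was measured in few members. Nfe2l2 had 26.1% in its body and 0.818% in its 5' flank, a difference of 25.2 points (21.4 to 34.1 over the columns). In Mt2 the body was lower than the 5' flank, at 1.07% against 9.66%, a difference of -8.59 points (-10.6 to -6.31). Mt1 had 1.86% in its body and 31.6% at the pair of positions in its 5' flank. The annotated start of Mt1 lies inside its gene interval. Its body therefore holds the same 77 positions as its start window, among them those measured in the promoter sequence above. Both 5' flanks with at least 3 positions lay under 20%, against 69.6% of 7124 genes, with a median of 5.24% over these 2 and 4.61% over all of those genes. Without the positions inside another gene, which are the 14 of Mt2 in the non-coding RNA gene Gm39227, or with flanks of 1000 bp, the median of the 2 was 1.21%. Hmox1 had 10.04% in its body and 6.70% in the flank at its lower coordinate, and the body was the higher one in 8 of 10 columns. With at least 20 reads in each column the direction turned, with a body minus flank difference of -2.18 points. The single 3' flank with at least 3 positions, that of Keap1, had 51.0%, and 22.9% of 3620 genes had a 3' flank under 20%. The flank of Gclc at the higher coordinate had 79.0% at 4 positions.

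Runs of neighbouring positions, called blocks and split at gaps of more than 300 bp, fell into a low and a high set with none between. Of 45 blocks, 11 lay at 0.711 to 4.66% and held 563 positions, and 34 lay at 31.6 to 88.9% and held 261 positions. Single positions showed the same split, since 66.7% of the 824 lay under 10%, 6.43% at 10 to 50% and 26.8% at 50% or more. Over all autosomal positions these shares were 30.8%, 21.2% and 48.0%. At 151 of the 824 positions no column had a methylated call. The strands of the same CpG, both measured at 300 CpGs, differed by a median of 0.850 points and by at most 12.9 points.

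By distance, members were low on both sides of a start and high further inside, although the distance bins held different genes. Only the 8 genes with an annotated start were used, and no bin held all of them. From 250 bp before a start up to it, the mean level was 1.47% (columns at 0.672 to 2.24%) over 4 member genes, against 3.34% over all genes. In the 250 bp after it the level was 0.951% (0.425 to 4.26%) over 4 member genes, against 3.80%. At 500 to 1000 bp after it the level was 1.28% (0.984 to 2.08%) over 6 member genes, against 9.30%. At 2000 to 5000 bp the level was 73.1% (67.3 to 81.2%), from 12 positions in 4 genes, against 45.2%. At 10000 bp or more it was 75.4% (73.2 to 78.6%) over 4 member genes, against 59.98%. Most of the 115 member positions in this last bin were those of Txnrd1. The bins began 2000 bp before a start, so positions of Txnrd1 further before its internal starts were left out. The members had no position at 1000 to 2000 bp after a start, or at 500 to 1000 bp before it, so neither the place nor the steepness of the change within those gaps was seen.

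**Figure D3:**
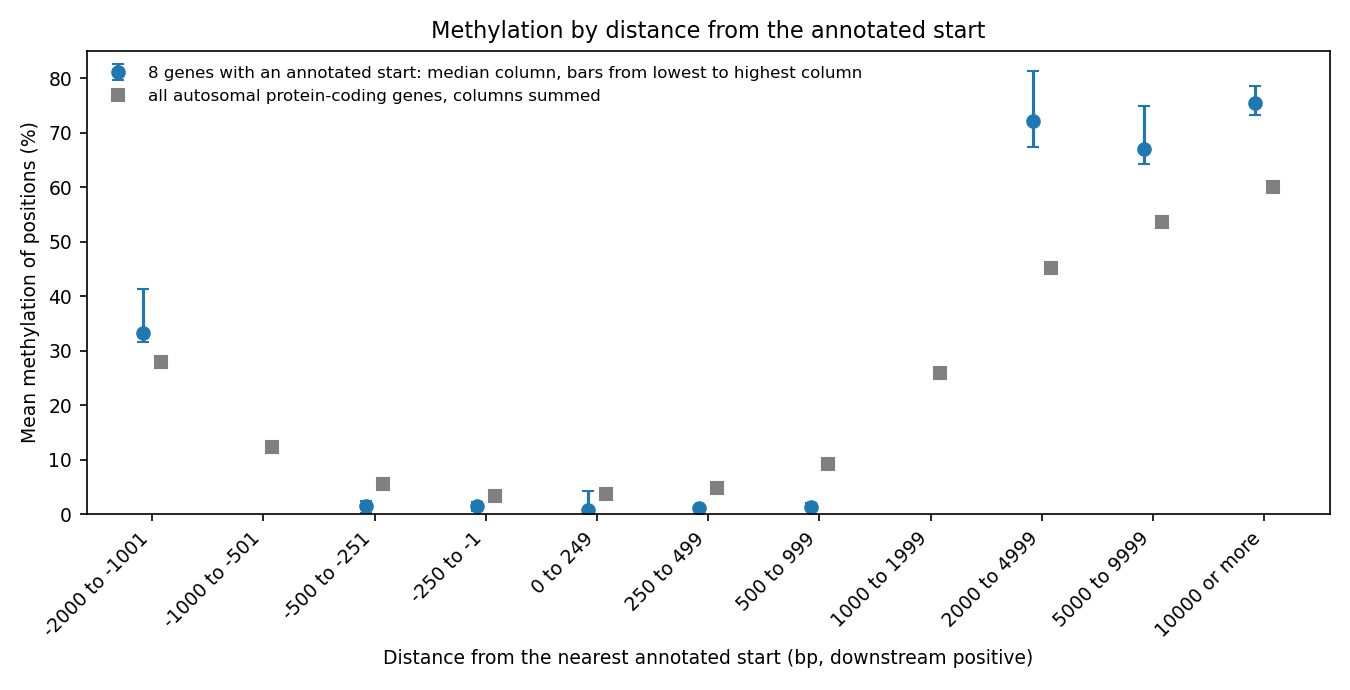
Mean methylation in percent of positions by distance in bp from the nearest annotated start, for the 8 genes with an annotated start (circles: median column, bars from the lowest to the highest column) and for all autosomal protein-coding genes with one (squares, all reads). The members stay at 0.951 to 1.60% (all reads) from 500 bp before to 1000 bp after the start and lie above the squares from 2000 bp on.

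In Gclc the edge was covered. The level was 0.860% at 22 positions up to 500 bp after the lower coordinate end (columns at 0.149 to 2.13%, median 0.413%). It was 1.85% from there to 1000 bp (0.752 to 3.00%, median 1.64%) and 16.9% at 7 positions at 1000 to 2000 bp (12.4 to 25%, median 14.9%). No column of the last stretch reached down to the highest column of the stretch before it. In Mt2 the edge lay before the start. There the level was 36.5% in the outermost block (31.1 to 46.2%, median 35.9%), 4.33% at 300 to 500 bp (1.02 to 7.37%, median 4.83%) and 1.06% within 300 bp (0.376 to 2.23%, median 0.950%). All 14 positions of the outermost block lie in Gm39227, a long non-coding RNA gene.

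Txnrd1 was nearly unmethylated at its internal starts and methylated on both sides of them. Its first annotated start had no measured position in its window, and the second and the third lie 25255 bp and 26390 bp after it. The block at the second start had 0.749% over 47 positions and the block at the third had 1.40% over 49 positions. After these starts, 80 positions in 8 blocks had 84.4% (82.0 to 87.2%, median 84.0%). Before them, 54 positions in 7 blocks had 63.1% (58.6 to 68.0%, median 62.2%). The stretch after the starts was higher by 21.3 points (17.9 to 25.4) and in 10 of 10 columns, with blocks at 79.1 to 88.9%, against 44.2 to 75.7% before. The non-coding RNA gene Gm38560 covers 48 of the positions of Txnrd1, and the protein-coding gene Eid3 covers 7. Gm38560 takes in the third to the seventh block, all before the internal starts, and the first positions of the block at the second start. It holds no position of the stretch after the internal starts. The positions in Eid3 lie in that later stretch. Without positions inside another gene, the rest of Txnrd1 had 81.8%, against 75.3% with them. The first and the second block, which lie before the internal starts and outside Gm38560, had 44.2% and 75.7%. The block in Eid3 had 79.7%. Whether the 21.3 points depend on the overlap with these genes was not tested.

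**Figure D4:**
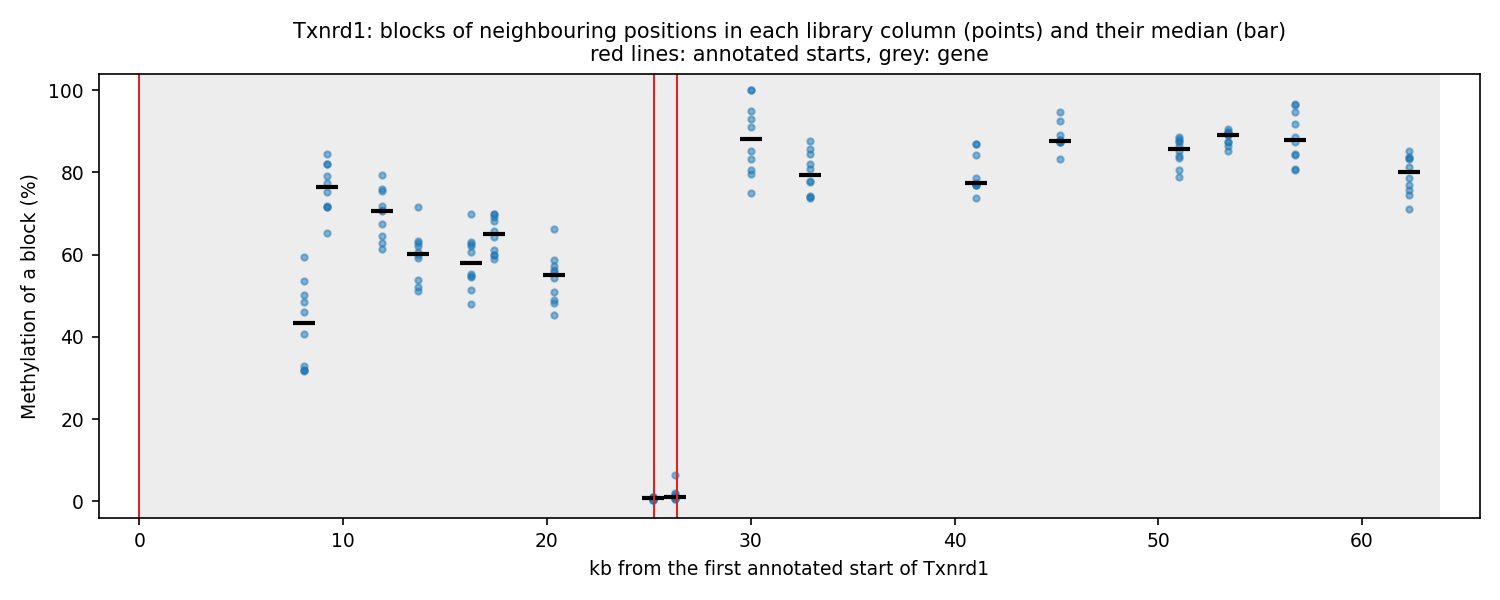
Methylation in percent of the 17 blocks of Txnrd1 in each library column (points) with the median column (bars), against the distance in kb from its first annotated start; red lines mark the 3 annotated starts and grey the gene. The blocks at the second and the third start lie near 1%, apart from 6.38% in column 9, and the blocks after them lie above those before.

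Mt1 and Mt2 were nearly unmethylated around their starts, where the other metallothionein genes beside them had no measured position. On the same chromosome, Mt2, Mt3 and Mt4 begin 6.27, 26.3 and 41.7 kb before Mt1. Mt3, a metallothionein known from brain, and Mt4, known from stratified squamous epithelium, are not members. The bodies of Mt1 and Mt2 had 1.86% and 1.07%, against 50.7% in the body of Mt3 (40.9 to 57.7%) and 49.2% at 2 positions in that of Mt4 (31.2 to 69.7%). The highest column of Mt1 (2.93%) and of Mt2 (2.69%) lay below the lowest column of Mt3 and Mt4. These bodies were read at unlike distances, within 1000 bp of the start in Mt1 and Mt2 and further away in Mt3 and Mt4. More than 1000 bp before their starts, Mt1 and Mt2 themselves had 31.6% at 2 positions and 36.5% at 14. The genes were therefore not compared at their starts. The 5' flank of Mt3 had 45.9% over 18 positions and its 3' flank 47.6% over 23. Within Mt1 the level was 1.80% in the 500 bp after the start (0.850 to 2.81%) and 2.63% at 500 to 1000 bp (0.368 to 6.51%), with overlapping columns. Mt1 and Mt2 are similar genes, and how reads matching both would have been placed is not given in the sources used here.

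**Figure D5:**
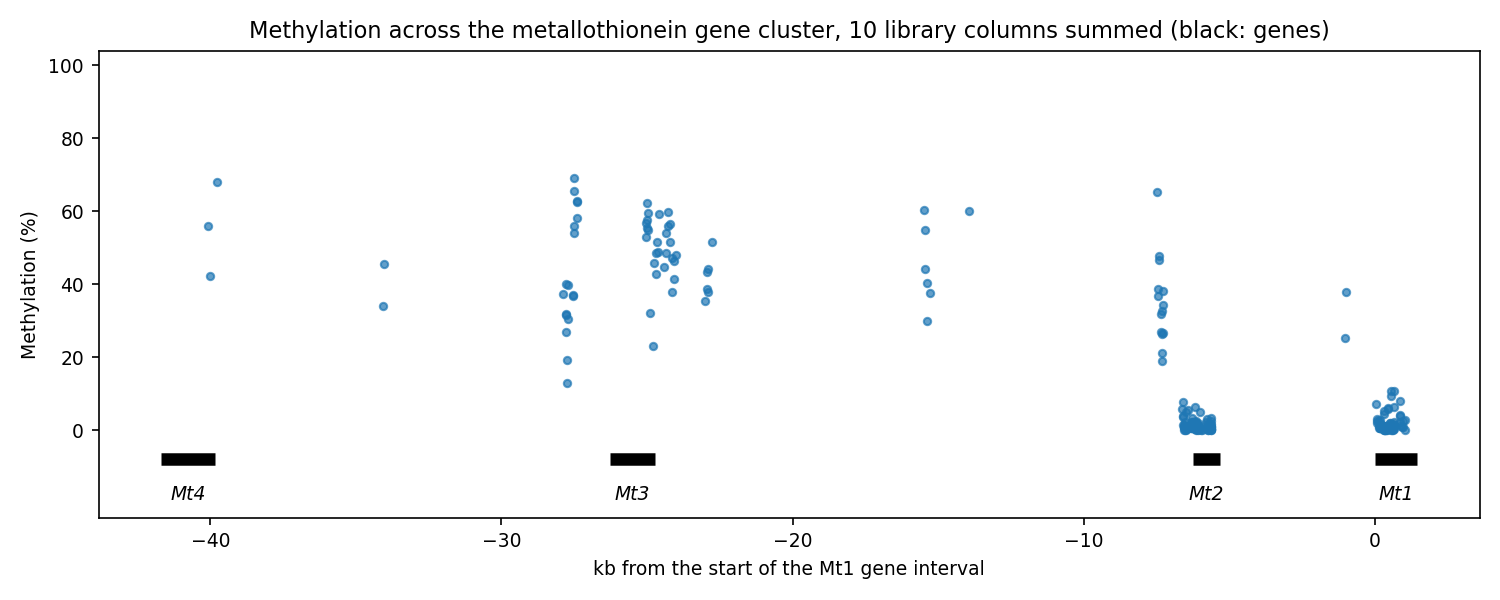
Methylation in percent at each measured cytosine across the metallothionein genes, with the reads of all library columns summed, against the distance in kb from the start of the Mt1 gene interval; black bars mark the genes. Positions in Mt1 and in and just before Mt2 lie at 0 to 10.7%, and the others in the plot lie above them.

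Binding motifs of the pathway were looked for in the 300 bases of the RefSeq promoter table, from 250 before to 50 after a start, on both strands. The antioxidant response element core TGACNNNGC was in 5 of the 10 member promoters, against 12.4% of all 32851 promoters. These 5 belong to Nfe2l2, Gclm, Srxn1, Mt2 and the second start of Txnrd1. The metal response element core, TGCACNC or TGCGCNC, was in 4 of the 10, namely Mt2 with 4 matches, Mt1 and Gclm with 3 each and Srxn1 with 1, against 25.7% of all promoters. In Mt2 the match TGACTCAGC, which begins 79 bp before the start in the sequence printed above, holds a measured cytosine with a level of 1.29% over 233 calls. The match TGCGCTC of Mt2, 128 bp before the start, holds one with 0.866% over 231 calls. Near the start of Nfe2l2, the match TGACTCCGC at 240 bp before it holds a measured cytosine with no methylated call among 199, which allows a level of up to 1.51%. A match to these letters is not a site of binding, and no match says only that the letters are not in that stretch.

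A wider list of 41 genes of the pathway, among them the Nrf2 partners and repressors, glutathione and iron genes, all matched by symbol. Of the 24 with at least 3 positions in the 5' flank, 19 lay under 20%, against 69.6% of all genes, and the median was 2.86%. The lowest were Bach1 at 0.371%, a repressor that competes with Nrf2, Sod1 at 0.399%, the cytosolic superoxide dismutase, and Mtf1 at 0.799%, the factor of the metal response. The highest were Mt3 at 45.9%, the glutathione peroxidase gene Gpx1 at 44.9% over 4 positions, and Osgin1 at 42.6% over 3 positions. In the gene body, 17 of 39 lay under 20%, against 27% of all genes, with a median of 33.4%. In the start window, 31 of 35 lay under 20%, against 83.2%, with a median of 1.97%. The other 4, named after their values were seen, were Bach2 at 61.8%, the cystine transporter gene Slc7a11 at 33.7%, Gstm1 at 28.8% and Osgin1 at 22.4%. The shares of all genes are for autosomal genes with a strand. The body and start window counts of the list include an X-linked gene, and the body count also includes genes with no strand here. Of 12 marker genes of trophoblast, decidua and blood, 6 had a start window level, from 0.915% in Cdx2 to 34.2% in Elf5, and these levels name no cell type.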

How the data were processed

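The tissue label gives embryos, and the labels' protocols describe extraction of embryo DNA but name sperm DNA as input of the reduced representation bisulfite libraries, a conflict that was not resolved. Trim Galore, Bismark, methylKit and mm10 are named in the submitters' processing notes, with no versions or settings. For each library column and cytosine the deposited table gives raw read counts (coverage, methylated calls and unmethylated calls), per the file headers. The table holds only positions with at least 10 reads in every column, so what follows holds for positions common to the libraries. Of 2137826 rows, 4 that repeat 2 positions were left out. Both kinds of call added up to the coverage in all rows. Of 167564 positions inside RefSeq promoter windows, 167558 lay on a CpG of the reference.

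A column was to be tied to a sample only by its name, and 0 of the 10 columns could be. The planned exact permutation test of arsenic against control was therefore not run, and no p-value is given. Levels are methylated calls over coverage, summed, with 95% Wilson intervals that cover counting error only. Gene positions came from RefSeq (GRCm38), and strand and starts from its promoter table, which held 8 of the 10 members. A zone entered counts and medians with at least 3 positions, and levels under 20% were counted as low. Of 20661 autosomal protein-coding genes, the comparison over all genes used the 16456 that had a strand. Gclc and Hmox1, which had none, were still counted among the members for start windows, rest and bodies. Their flanks were not counted as 5' or 3' flanks. Exons were not analysed here.

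All 10 members are named, and of the wider list the 3 highest and 3 lowest genes in the 5' flank, with Mt3 and Mt4 as neighbours. The members and lists were chosen with earlier results of these data known. Start windows, blocks and the stretches within them were set after seeing the data. Alternatives covered the coverage minimum, flank and window sizes, weighting, overlapping genes, the most covered positions and each column left out. The computation was tested on simulated data. Python 3.11.15, numpy 2.4.6, pandas 2.3.3 and matplotlib 3.10.9 were used.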

Additional observations from a re-analysis of the deposited data

Results flagged for a closer look

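In 57 sets of positions (zones, start windows and blocks of the members, which overlap), the highest or lowest of the 10 columns was set against the others. In 7 sets, or 12.3%, its gap to the nearest column was more than 0.466 of the whole range. Chance flags about 1 in 20 separate sets of normal values with equal spread, a rate that was not tested for these overlapping sets, shares near 0% and unequal coverage. No cause was tested, and no column could be tied to arsenic or control.

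Column 9 stood high at Txnrd1 and Mt2. In the Txnrd1 start window it had 2.15%, against 0.671 to 1.05% in the other columns. Within it, the block at the third start had 6.38%, against 0.648 to 1.93%, from 60 methylated calls among 941. These calls lay on 18 of 49 positions, against a median of 6 positions in the other columns, and no position had more than 4. In the Mt2 gene body column 9 had 2.69%, against 0.612 to 1.16%, from 77 methylated calls among 2859 that lay on 25 of 66 positions, against a median of 13. Column 9 was highest in 4 of the 9 start windows (Hmox1, Txnrd1, Srxn1 and Mt2) and in 12 of 40 blocks. It was lowest in the Gclm start window, at 0.590%, and in 3 of the 40 blocks. Column 10 was highest in 3 of the 9 start windows (Nfe2l2, Gclm and Mt1). Only column 3 had less summed coverage than column 9 (86075486). The level of column 9 over the 9 start windows had a median of 1.65%, against 0.949 to 1.25% in the other columns.

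Column 7 had 1.35% in the Keap1 start window, against 0.364 to 0.840% in the others, and 61.7% in the Gclc flank at the higher coordinate, against 74.3 to 86.5%, from 120 calls at 4 positions. Column 8 had 72.5% in the second block of Gclc, against 79.0 to 85.9%. Column 3, the shallowest, had 72.2% in the fourth block of Gclc, against 80.7 to 86.5%.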

How the results depend on the processing

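Leaving out each column in turn moved no count and no median beyond its spread. The start window median stayed at 1.07 to 1.28%, the rest at 66.8 to 67.9%, the gene body at 16.8 to 17.8%, the 5' flank at 5.05 to 5.39% and the 3' flank at 50.3 to 51.8%. All 9 start windows stayed under 20% in each of these, and without column 9 the Txnrd1 window was 0.915% and the Mt2 body 0.915%. The zone values depended on the settings more than the start windows did. With at least 20 reads in each column, the medians were 4.19% (5' flank), 30.3% (body) and 64.4% (rest), and the Hmox1 gene body minus flank turned to -2.18 points, from fewer positions. With at least 30 reads they were 6.82%, 35.8%, 65.6% and 58.2% (3' flank), with 1 low 5' flank and 2 low bodies. These changes include a loss of genes. At 30 reads the 5' flank value came from Mt2 alone, and Gclm and Hmox1 had no body position left. Srxn1 had none at 20 or at 30 reads, in its body or in its start window. At 30 reads the start windows of Nfe2l2 and Gclm had no position left either. The 5' flank median was 1.21% with flanks of 1000 bp or 500 bp, and without positions inside another gene. With windows of 1000 bp on both sides of each end, 6 start ends, 1 body and 2 far ends were low. The medians were 1.10%, 59.6% and 1.71%, since those windows take positions from the body. The 2 far ends were those of Mt1 and Mt2, genes of 1445 and 950 bp, where the window reaches back to positions near the start. Mt1, Mt2, Hmox1 and Srxn1 had too few body positions left to be counted. With equal weights the medians were 6.28% (5' flank), 46.8% (3' flank) and 64.0% (rest), and with at least 5 positions the rest was 64.4%. With a start window of 500 bp, an alternative chosen after seeing the data, the start median was 1.00% and the rest 34.6%, with 3 low. The Hmox1 start window ranged from 2.34% with equal weights to 12.9% with at least 30 reads, and that of Mt2 reached 4.61% with 2000 bp. No paired analysis was possible because the columns carry no replicate number of a group, and for the same reason leaving out replicates of a group was not run. Depth limits the levels of few positions, such as those of Srxn1 and the Mt1 flank.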
